A study of Mus musculus with 4 samples.

Results

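The genes described here are the nuclear-encoded subunits of mitochondrial complex I, measured in intestinal stem cells (ISCs) of young and old mice. They were chosen by gene name: a symbol that begins with Nduf, goes on with the letter a, b, c, s, v or ab, and ends in a number. This takes in 37 of the 52459 genes listed. Assembly factors, whose symbols begin with Ndufaf, and the hyphenated Ndufab1-ps were left out by name, and so was Ndufa4l2, whose symbol does not end after its first number. The rule uses no measured value.

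ISCs were sorted from the small intestinal crypts of wild-type, female C57/Bl6 mice, with no treatment named, at 2 months (ISC_2mth, young) and 22 months (ISC_22mth, old), and the study asked what differs between the ages. The sort, called SM6, kept cells that were CD31-, CD45-, CD24med, CD166+, CD44high, GRP78low, EPHB2high and EPCAM+, and no reporter allele was used. Each age had 2 pools (replicates 1 and 2), each made from the cells of 5 animals, so a library is an average over animals and n = 2 pools for each age. RNA was amplified by SPIA, a linear amplification that yields full-length libraries, before sequencing.

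Complex I, or NADH:ubiquinone oxidoreductase, is the entry point of electrons from NADH into the respiratory chain. It is L-shaped. The peripheral arm reaches into the matrix and holds the N module, which oxidizes NADH, and the Q module, which reduces ubiquinone, while the membrane arm pumps protons. The mitochondrial genome encodes the proton-pumping core of the membrane arm, and the nucleus encodes the catalytic core of the peripheral arm and a larger number of accessory subunits around both arms, so that its assembly needs transcripts from both genomes. In the crypt, oxidative metabolism is a known feature of Lgr5-positive ISCs.

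The proximal promoters of 2 subunits are shown because these are the subunits with the highest and the lowest fitted log2 fold change with age over the 4 pools, described further on. Ndufc1, a small accessory subunit of the proximal membrane arm, lies on the minus strand of GRCm38 at chr3:51404677-51408988. Ndufs8, a core iron-sulphur subunit of the Q module, lies on the minus strand at chr19:3908863-3912774. The 120 bases just before the outermost annotated start hold no exon in GENCODE vM21. They are given 5′ to 3′ from the RefSeq promoter windows (GRCm38.p6), at chr3:51408989-51409108 and chr19:3912775-3912894, with matches to the letters searched in capitals. Ndufc1 has no match in this stretch, and Ndufs8 has 3 CCAAT boxes.
Ndufc1: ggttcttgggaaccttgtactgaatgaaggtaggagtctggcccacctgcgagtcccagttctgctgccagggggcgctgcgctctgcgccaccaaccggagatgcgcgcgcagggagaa
Ndufs8: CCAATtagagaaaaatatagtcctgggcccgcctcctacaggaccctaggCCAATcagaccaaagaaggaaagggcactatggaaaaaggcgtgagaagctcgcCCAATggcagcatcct

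RefSeq promoter windows, from 250 bases before to 50 after the start, were matched for 33 of the 37 subunits (Ndufa2, Ndufb9 and Ndufs1 among those not matched). They were searched on both strands for the exact letters of the NRF1, YY1 and ETS (GABP) motifs, whose factors control respiratory chain genes. The general promoter letters CCAAT and TATAAA were searched too. The NRF1 motif, GCGCA and GCGC with any base between them, was found in 7 of 33 subunits (21.2%), against 4.6% of all 32851 windows. The YY1 motif AAGATGGC was also found in 7 of 33 subunits (21.2%), against 2.75% of all windows. In all 7 the YY1 letters stood in the sense direction and began between 23 and 39 bases after the start. The YY1 letters include ATG, and whether this is the start codon of the subunit was not examined. The ETS (GABP) motif CCGGAAG was found in 12.1% of the subunits against 8.86% of all windows, CCAAT in 30.3% against 37.4%, and TATAAA in 12.1% against 13.6%. The ETS letters end and the YY1 letters begin with AAG, so matches of these can overlap, and a match is a description, not a site shown to be bound. The NRF1 matches of the 3 holders with the largest fitted changes and of Ndufa11, which is among the lowest, are shown with 10 bases on either side, and the YY1 match of Ndufc1 likewise, in the direction of the gene with the motif in capitals. They lie at chr15:82354249-82354278, chr2:36049349-36049378, chr6:24527697-24527726, chr17:56717692-56717721 (plus strand) and chr3:51408916-51408943, all but Ndufa11 on the minus strand.
Ndufa6, NRF1: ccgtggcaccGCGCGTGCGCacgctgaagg
Ndufa8, NRF1: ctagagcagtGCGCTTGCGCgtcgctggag
Ndufa5, NRF1: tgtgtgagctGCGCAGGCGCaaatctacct
Ndufa11, NRF1: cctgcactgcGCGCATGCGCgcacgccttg
Ndufc1, YY1: cctgcggaacAAGATGGCgccgtccgta

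Libraries held between 11662654 and 15975698 counts, of which 62.6% and 65.7% in the young pools and 73.8% and 72.9% in the old pools fell on mitochondrially encoded genes, leaving between 3852178 and 4593004 counts on nuclear genes. The subunits received 12039 and 13301 counts in the young pools and 12584 and 13318 in the old pools, and single subunits between 11 and 1134 counts in a library. Levels are given as normalized CPM, counts relative to the size of the library after TMM scaling, the trimmed mean of M-values of edgeR. TMM matters here, because the mitochondrial share of the counts moved with age: scaled to total counts alone, the median over all genes tested moved to -0.50 on the log2 scale, and directions under that scaling are read against this shift. The 10 ISC marker genes were all expressed and together gave 3028 and 2854 normalized CPM in the young and 2826 and 3038 in the old pools, and 0 of 10 passed the test by edgeR and 1 (lower) by limma voom, the likelihood ratio test and DESeq2. At an unadjusted p under 0.05, 2 of them were higher and 4 were lower.

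Of the 37 subunits, 2 passed the test between ages and both were higher in old ISCs: Ndufc1, 1.86-fold, and Ndufa1, 1.71-fold, the latter also a small accessory subunit of the proximal membrane arm. The other 35 did not pass. The study's own list of genes that differ between the ages holds these 2 and also Ndufa6 and Ndufa8, all higher. Fitted log2 fold changes were above 0 for 30 subunits under TMM, with a median of 0.18, and for 6 under scaling to total counts, with a median of -0.31, still 0.18 over the shift just given. The 7 with values at or under 0 lay between -0.12 and -0.03. The 7 nuclear members of the catalytic core had a median of 0.10 and the 29 accessory subunits one of 0.22, and this difference was not tested. Leaving out 1 pool at a time, the core median ran from -0.07 (without old pool 2) to 0.16 (without old pool 1), and was -0.0079 without young pool 1, while the accessory median ran from 0.20 to 0.35. The medians of all 6 structural groups named further on turned negative under total counts and lay between 0.0092 and 0.35 over that shift.

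These counts are read against all 13692 genes tested with edgeR's quasi-likelihood test at a Benjamini-Hochberg FDR of 0.05. Among all genes 1.63% were higher and 0.628% lower in old ISCs, against 2 and 0 of the 37 subunits. A fitted log2 fold change above 0 was found for 49.5% of all genes, whose median was -0.0049. At an unadjusted p under 0.05, 13 of the 37 subunits were higher and 0 lower, where 9.26% of all genes were higher and 7.65% lower. No subunit was called lower by limma voom, the likelihood ratio test or DESeq2 either. Both old pools exceeded both young pools for 18 subunits, the pools overlapped for 19, and none had both old pools below both young pools. Among all genes the old pools were above in 24.0% and below in 23.6%. An exact permutation test of 2 pools against 2 cannot give a p under 0.333, so the test of each gene rests on a spread estimated across all genes.

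**Figure D1:**
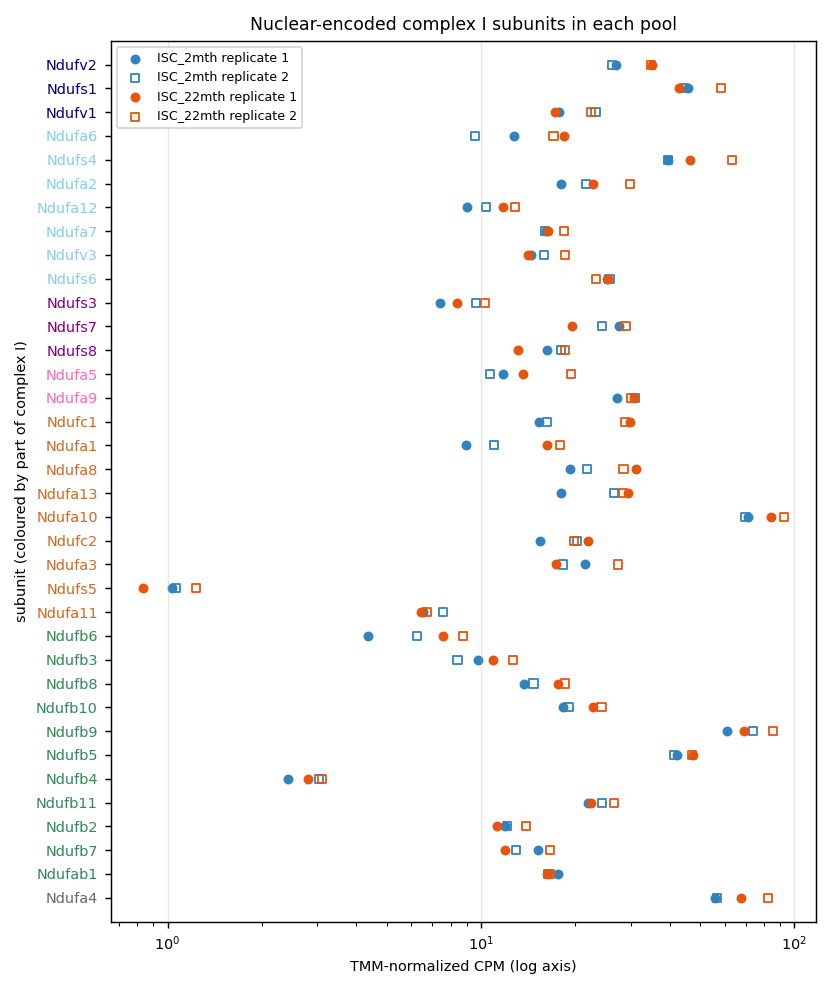
Each row is 1 of 36 subunits and each point 1 pool, with TMM-normalized CPM on a log axis; blue points are young and orange points old pools, filled for replicate 1 and open for replicate 2, and names are coloured by place in the complex. Both orange points lie to the right of both blue points for 18 subunits under this scaling, Ndufc1 and Ndufa1 among them, and none has both to the left.

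Levels between genes were compared as TPM, counts per kilobase of exon scaled to the same total in each pool over all genes, mitochondrial ones included. Means over the 4 pools spanned 57.0-fold around a median of 21.3 TPM. Ndufb9, an accessory subunit that anchors an acyl carrier protein in the distal membrane arm, was the highest, with 119 and 130 TPM in the young and 84.3 and 107 TPM in the old pools. Ndufa4 followed with 81.5, 74.2, 61.4 and 77.2 TPM in young pools 1 and 2 and old pools 1 and 2. Ndufa2 was the third, with 63.3, 68.2, 49.9 and 67.6 TPM in the same order. The ranges of Ndufa4 and Ndufa2 overlapped, and that of Ndufb9 lay above both. Ndufa4 was first described as a complex I subunit and is now placed in complex IV; it was kept here because the name rule takes it in.

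The lowest level was that of Ndufs5, a cysteine-rich subunit on the intermembrane side, with 2.42 and 2.23 TPM in the young and 1.22 and 1.85 TPM in the old pools. Ndufb4 had 2.54, 2.87, 1.84 and 2.10 TPM and Ndufb2 4.27, 3.89, 2.52 and 3.20 TPM in the same order of pools. The ranges of these neighbours in the order overlapped. TPM of a nuclear gene falls when the mitochondrial share rises, so these values order the subunits within a pool and do not compare ages. Ndufs5 and Ndufb4 share 21.7% and 18.3% of their 50-nt stretches with other genes, where reads may have been split or dropped, and Ndufb9 shares 15.6% with an overlapping gene on its own strand. With the median length of coding transcripts in place of all exons, a choice made after seeing the data, the 3 lowest kept their ranks, Ndufa4 and Ndufb9 exchanged ranks 1 and 2, and Ndufa2 went from rank 3 to rank 10.

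In the N module, none of the 3 core subunits passed the test, and their median of 0.17 was 0.38 without old pool 1 and -0.07 without old pool 2. Ndufv1, which binds NADH and carries the flavin, had 17.7 and 23.2 CPM in the young and 17.2 and 22.4 CPM in the old pools, overlapping values with a log2 fold change of -0.05 (95% interval -0.43 to 0.33). Ndufv2, its iron-sulphur partner, had 26.9 and 26.2 CPM in the young and 35.2 and 35.0 CPM in the old pools. The old pools of Ndufv2 lay above the young, by 0.40 on the log2 scale (SE 0.14, FDR 0.151), which did not pass. Ndufs1, the largest core subunit and a carrier of iron-sulphur clusters, had 45.7 and 44.3 CPM in the young and 42.9 and 58.4 CPM in the old pools, so that only old pool 2 was high.

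Among the 7 accessory subunits of the N module, 6 had fitted values above 0, with a median of 0.34 (0.20 without old pool 2), and 5 had both old pools above both young. The largest difference was that of Ndufa6, a LYR-motif protein that binds the mitochondrial acyl carrier protein. Its levels were 12.8 and 9.54 CPM in the young and 18.4 and 17.0 CPM in the old pools, a log2 fold change of 0.67 (SE 0.19, FDR 0.0782). It missed the threshold in the quasi-likelihood test and passed it in the likelihood ratio test. Ndufs4, whose loss in mice is a model of Leigh syndrome, had 39.5 and 39.6 CPM in the young and 46.3 and 63.2 CPM in the old pools (log2 fold change 0.47, FDR 0.111). Its 2 young pools were nearly equal and its old pools far apart. Ndufs6, a zinc-binding subunit, was the one member of the group below 0, with 25.3, 25.7, 25.4 and 23.3 CPM in young pools 1 and 2 and old pools 1 and 2.

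The 4 core subunits of the Q module had a median log2 fold change of 0.0022, which was 0.16 without old pool 1, -0.20 without old pool 2 and -0.02 without young pool 1. None of them passed the test, and the pools overlapped for all 4. Ndufs3 had 7.38 and 9.61 CPM in the young and 8.40 and 10.3 CPM in the old pools. Its fitted value of 0.14 turned negative under scaling to total counts (-0.35), still 0.15 over the shift of all genes. It was -0.04 without young pool 1, -0.02 without old pool 2, 0.28 without old pool 1 and 0.34 without young pool 2.

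Ndufs7, which carries the cluster that hands electrons to ubiquinone, had 27.5 and 24.3 CPM in the young and 19.5 and 28.9 CPM in the old pools, the latter on both sides of the young values. Ndufs8 had 16.3 and 18.0 CPM in the young and 13.1 and 18.5 CPM in the old pools, again with old pool 1 lowest and old pool 2 highest. Their log2 fold changes were -0.10 (95% interval -0.47 to 0.27) and -0.12 (-0.52 to 0.28). Together with Ndufa11 (-0.10), a membrane subunit with 6.55 and 7.55 CPM in the young and 6.43 and 6.72 CPM in the old pools, they were the 3 lowest of the 37. This order rests on old pool 1 for Ndufs7 and Ndufs8, which were at 0.16 and 0.11 without it, and Ndufa11 was at 0.00038 without young pool 2. Of the 2 accessory subunits of the Q module, Ndufa5 had 11.8 and 10.7 CPM in the young and 13.6 and 19.4 CPM in the old pools (log2 fold change 0.55, FDR 0.167). With 1 pool left out, the change of Ndufa5 ran from 0.28 (without old pool 2) to 0.79. Ndufa9, which holds a bound nucleotide, had 27.1, 31.0, 30.9 and 30.1 CPM in young pools 1 and 2 and old pools 1 and 2.

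The 2 subunits that passed belonged to the 9 of the proximal membrane arm, where 7 had fitted values above 0, the median was 0.33 and 5 had both old pools above both young. Ndufc1 received 222 and 245 counts in the young and 395 and 352 counts in the old pools, or 15.3 and 16.2 against 29.9 and 28.8 CPM. The group means were 15.8 ± 0.649 and 29.4 ± 0.751 CPM (SD, n = 2), and the groups were far apart compared with the distance within each. The log2 fold change was 0.90 (SE 0.16, 95% interval 0.57 to 1.22, edgeR FDR 0.00455), the lowest p of any subunit and the 50th of all genes. It passed in 16 of 17 alternative settings, all but total counts (log2 fold change 0.41, FDR 0.0782, the highest of the 17, whose lowest was 4.35e-05).

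Ndufa1, at chrX:37187588-37191163 on the minus strand, received 130 and 166 counts in the young and 215 and 218 counts in the old pools, or 8.97 and 11.0 against 16.3 and 17.9 CPM. Its means were 9.98 ± 1.44 and 17.1 ± 1.12 CPM (SD, n = 2), again without overlap. The log2 fold change was 0.77 (SE 0.19, 95% interval 0.37 to 1.17, edgeR FDR 0.0395). This call was less firm, as it passed in 9 of 17 alternatives and was lost with DESeq2 (FDR 0.117) and without young pool 1 (log2 fold change 0.63, FDR 0.323, the highest of the 17, whose lowest was 0.00821). Ndufa1 shares no 50-nt stretch with another gene, and Ndufc1 shares 4.26%. The promoter window of Ndufa1 overlaps an exon of Rnf113a1 on the opposite strand, the genes being arranged head to head.

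Among the other proximal subunits, Ndufa8, a cysteine-rich protein of the intermembrane space, came nearest to the threshold, with 19.2 and 21.7 CPM in the young and 31.3 and 28.5 CPM in the old pools (log2 fold change 0.55, SE 0.15, FDR 0.0717). Ndufa10, a large matrix subunit related to nucleoside kinases, had 71.0 and 69.8 CPM in the young and 84.1 and 92.9 CPM in the old pools (log2 fold change 0.33, FDR 0.174). Ndufa13, also known as GRIM-19, had 18.0, 26.5, 29.5 and 28.4 CPM in young pools 1 and 2 and old pools 1 and 2. All 3 had old pools above young pools without passing the test, though Ndufa8 passed in the likelihood ratio test. Ndufa13 shares 28.5% of its stretches, mainly with Tssk6, which overlaps its exons on the opposite strand and had 0 counts in every pool.

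In the distal membrane arm 10 of 11 subunits had fitted values above 0, with a median of 0.18 (0.04 without old pool 2), and 0 passed the test by edgeR's quasi-likelihood or likelihood ratio test, limma voom or DESeq2. At an unadjusted p under 0.05, 2 of the 11 were higher. Ndufb6 had the largest difference, with 4.35 and 6.23 CPM in the young and 7.57 and 8.76 CPM in the old pools (log2 fold change 0.62, SE 0.26, FDR 0.221). It shares 31.6% of its stretches with Smim27 on the opposite strand, so reads of the pair cannot be told apart if counting ignored strand, as holds for the 14 of 37 subunits whose exons overlap a gene on the other strand. Ndufb10, at 18.2 and 19.0 against 22.9 and 24.2 CPM, and Ndufb8, at 13.7 and 14.7 against 17.6 and 18.6 CPM, had tight pairs of pools that did not overlap. Ndufab1, the mitochondrial acyl carrier protein, which also serves lipoic acid synthesis, was the one member below 0, with 17.7 and 16.4 CPM in the young and 16.2 and 16.5 CPM in the old pools.

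Ndufa4 had 56.0 and 56.7 CPM in the young and 67.4 and 82.4 CPM in the old pools (log2 fold change 0.41, FDR 0.113). Without it, 29 of the remaining 36 subunits had fitted values above 0, with a median of 0.18. Of the 18 subunits that share at most 10% of their stretches and overlap no other gene's exons, a subset chosen after seeing the data, 15 had fitted values above 0, with a median of 0.36.

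**Figure D2:**
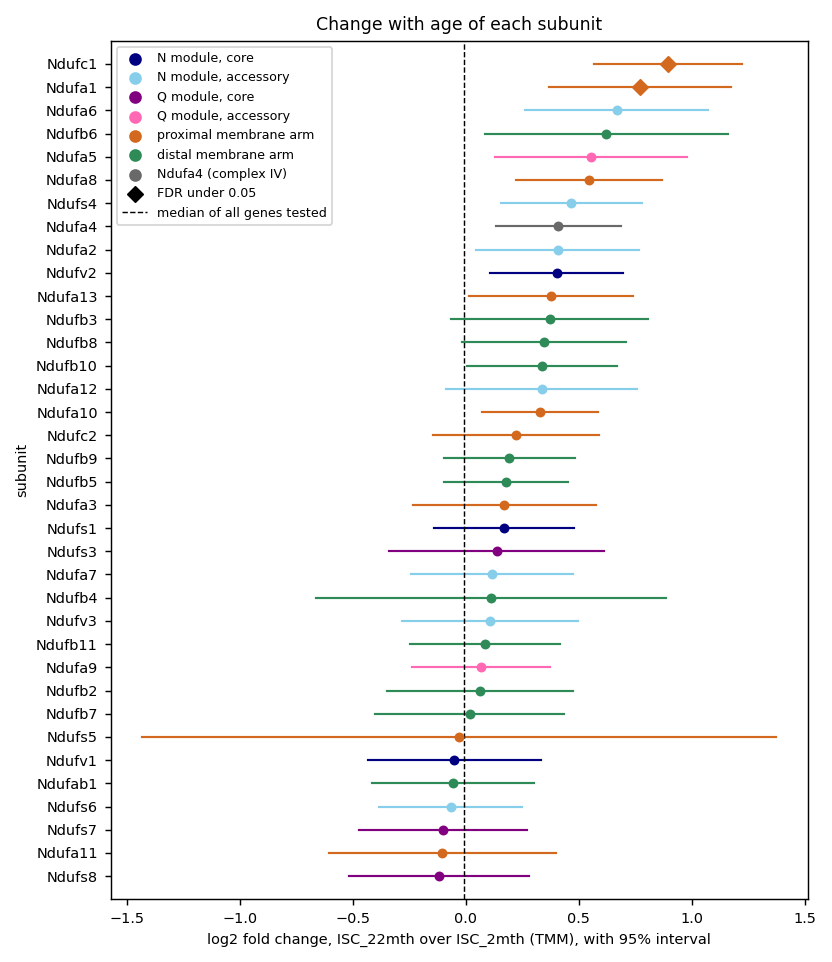
Points give the log2 fold change of each subunit (old over young, TMM scaling) with its 95% interval, ordered by size and coloured by place in the complex; diamonds mark FDR under 0.05 and the dashed line the median of all genes tested (-0.0049). Only Ndufc1 (0.90) and Ndufa1 (0.77) are diamonds, 29 of 36 points lie above 0, and under scaling to total counts 6 of all 37 subunits would.

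The pools of an age were not alike. Over the subunits, old pool 1 lay a median of 0.09 and old pool 2 a median of 0.34 above the young mean on the log2 scale, and old pool 2 exceeded old pool 1 in 28 of 37 subunits, against 50.4% of all genes. Young pool 2 exceeded young pool 1 in 25 of 37, against 49.7% of all genes. Leaving out old pool 1 raised the median of the subunits to 0.34 and the number called to 6 (Ndufa1, Ndufa2, Ndufa4, Ndufa5, Ndufc1 and Ndufs4, all higher). Leaving out old pool 2 lowered the median to 0.09, with 23 of 37 above 0, and called 4 (Ndufa1, Ndufa6, Ndufa8 and Ndufc1). Leaving out young pool 1 left Ndufc1 alone called, with a median of 0.14, and leaving out young pool 2 left both called, with a median of 0.29. Ndufc1 was called without each of the pools in turn. Calls over all genes moved too, from 309 to 652 without old pool 1, 710 without old pool 2, 151 without young pool 1 and 291 without young pool 2.

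Differences between subunits also followed base composition. Across the 37 subunits the log2 fold change and the GC content of the transcripts had a Pearson r of -0.42 and a Spearman rho of -0.44, a description over genes that share the same 4 libraries. Across 13236 genes with annotation r was -0.15 and rho -0.22. For the 16 subunits with under 50% GC the median change was 0.39 on the log2 scale and 15 were above 0, where all genes under 50% GC had a median of 0.08. The 6 subunits with over 55% GC had a median of -0.07, with 2 above 0, where all such genes had a median of -0.18. With offsets for GC content and length in each library, r over the subunits was -0.15, their median was 0.15, and Ndufc1 was the 1 subunit called. The log2 fold change of Ndufc1 was then 0.70 (0.90 without offsets, FDR 0.0313 with them) and that of Ndufa1 0.74 (0.77 without offsets, FDR 0.0626 with them).

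**Figure D3:**
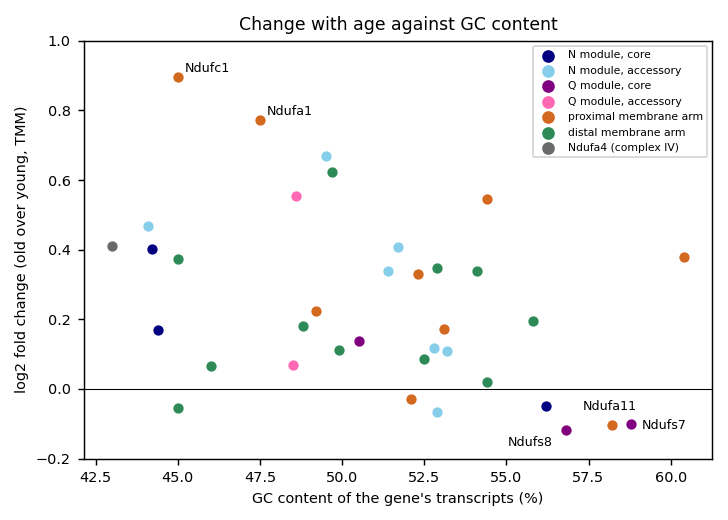
Each point is 1 of 36 subunits, with the GC content of its transcripts in percent on the x axis and its log2 fold change (old over young, TMM, no offsets) on the y axis. Ndufc1 and Ndufa1 lie at 45.0% and 47.5% GC, and the 3 lowest subunits, Ndufs8, Ndufa11 and Ndufs7, lie at 56.8%, 58.2% and 58.8%.

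The mitochondrial genome encodes the remaining core subunits of complex I. Of 7 mitochondrial genes 6 were tested and 5 passed, all higher in old ISCs: mt-Nd2 by 1.34, mt-Nd6 by 1.10, mt-Nd5 by 1.09, mt-Nd1 by 0.97 and mt-Nd4 by 0.94 on the log2 scale (edgeR FDR between 5.08e-07 and 3.37e-05). All 6 remained above 0 under scaling to total counts, with a median of 0.54. The ratio of mt-Nd counts to counts of the 37 nuclear subunits needs no scaling between libraries, and was 15.7 and 17.1 in the young and 32.6 and 25.6 in the old pools, without overlap. mt-Nd4l had 0 counts in every pool, which allows at most 3 counts in each, and mt-Nd3 had 18 to 32 counts (log2 fold change 0.82, FDR 0.418); these genes share 98.8% and 98.0% of their stretches with other genes, and mt-Nd4 shares 62.2%, so the counts of all 3 are uncertain.

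**Figure D4:**
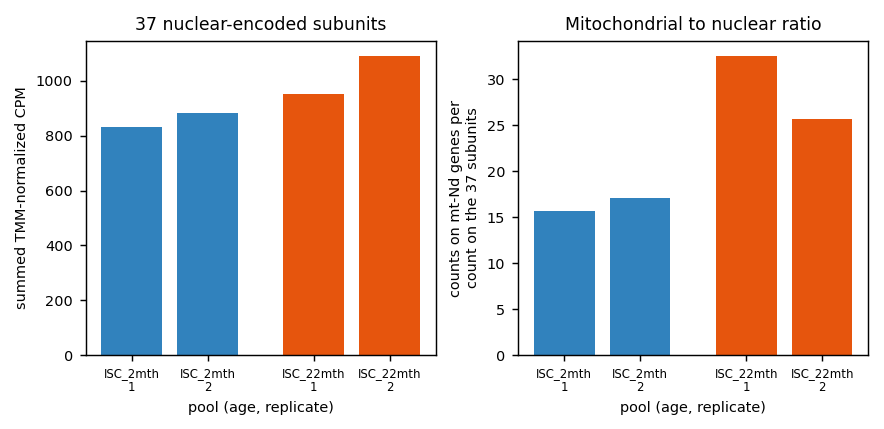
Bars give 1 value for each pool, blue for young and orange for old: on the left the summed TMM-normalized CPM of the 37 nuclear subunits, on the right the counts on mt-Nd genes for each count on those subunits. The sums are 831 and 881 in the young and 952 and 1091 in the old pools (scaled to all counts, in the same order, they are 1032, 993, 788 and 936 CPM), and the ratios are 15.7, 17.1, 32.6 and 25.6.

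Of the 18 complex I assembly factors tested, 0 passed the test by edgeR's quasi-likelihood test, limma voom or DESeq2, and 1 (higher) by the likelihood ratio test. The study's own list of genes that differ between the ages holds Ndufaf4, higher. At an unadjusted p under 0.05, 4 factors were higher and 1 lower. Their median log2 fold change was 0.07, with 10 of 18 above 0. Both old pools were above both young for 8 of the 18 factors and below for 5. Among all genes these shares were 24.0% and 23.6%. None of the subunits had old pools below, and the difference between factors and subunits was not tested.

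The other complexes of the chain are given for context. In complex II, 0 of 4 genes passed, with a median of 0.22, 2 higher at an unadjusted p under 0.05 and 0 called by the other 3 tests. In complex III, 1 of 9 passed, Uqcrfs1, the Rieske iron-sulphur protein (532 and 576 counts in the young, 803 and 836 in the old pools, log2 fold change 0.79, FDR 0.00348), and the median was 0.17. The other 3 tests also called 1 of the 9, and 3 were higher at an unadjusted p under 0.05. In complex IV, 0 of 10 passed in any of the 4 tests, with 3 higher at an unadjusted p under 0.05 and a median of 0.25. That median was 0.15 without old pool 2 and 0.33 without young pool 2. In complex V, the ATP synthase, 1 of 15 passed, Atp5f1 (595 and 636 against 720 and 793 counts, log2 fold change 0.52, FDR 0.0477), and the median was 0.32. Limma voom called 3 of the 15, the likelihood ratio test 1 and DESeq2 1, and 7 were higher and 0 lower at an unadjusted p under 0.05. Of these complexes, the study's own list holds Sdha, Sdhb, Uqcrfs1, Atp5a1, Atp5b, Atp5c1, Atp5f1 and Atp5g3, all higher. Medians of all 4 complexes turned negative under scaling to total counts, and stayed between 0.17 and 0.34 over the shift that this scaling gave all genes.

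Of 9 regulators of mitochondrial biogenesis, 0 passed in any of the 4 tests. At an unadjusted p under 0.05, 1 was higher and 2 lower, and the median log2 fold change was -0.17. Leaving out 1 pool at a time, this median ran from -0.24 (without old pool 2) to -0.06 (without young pool 2). Nrf1 had 258 and 278 counts in the young and 168 and 166 in the old pools (log2 fold change -0.46, FDR 0.183), and Gabpa, a subunit of GABP, had 993 and 972 against 896 and 737 counts (-0.05, FDR 0.879). Gabpb1, its partner in GABP, had 221 and 291 against 318 and 291 counts (0.47, FDR 0.157), with both old pools above both young in normalized CPM. Yy1 had 660 and 689 against 598 and 544 counts (-0.02, FDR 0.953). These 4 are named because the motifs of their factors were searched in the promoters, a choice made after their values were seen. Of the 7 subunits with an NRF1 match, Ndufa6, Ndufa8, Ndufa5 and Ndufb4 had fitted log2 fold changes of 0.67, 0.55, 0.55 and 0.11, and Ndufs5, Ndufs6 and Ndufa11 had -0.03, -0.07 and -0.10. Of the 7 with a YY1 match, the values ran from -0.10 (Ndufs7) to 0.90 (Ndufc1).

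Markers of other epithelial cells were examined in the same fits. Of 9 enterocyte markers 3 passed, all higher in old ISCs (Fabp1, Sis and Fabp2), with summed levels of 395 and 530 CPM in the young and 899 and 817 CPM in the old pools, and none was at 0. Limma voom called 4 of them, the likelihood ratio test 5 and DESeq2 2, all higher. Of 6 Paneth cell markers 2 passed, both higher (Defa17 and Defa24), with sums of 925 and 715 in the young and 2062 and 800 CPM in the old pools, so that old pool 1 stood out. Limma voom called 2 Paneth markers, the likelihood ratio test 3 and DESeq2 0, and without old pool 1 the median log2 fold change of the list went from 0.85 to 0.03. Goblet cell markers passed in 0 of 7 cases (0 at an unadjusted p under 0.05 and in the other 3 tests), with sums of 1849 and 2443 in the young and 2506 and 1973 CPM in the old pools. In each of the enteroendocrine and tuft cell lists 1 gene passed, Sst and Dclk1, both higher. Sst had 7 and 7 counts in the young and 120 and 9 in the old pools, so that old pool 1 alone was high, and no enteroendocrine gene was called by limma voom or DESeq2. Dclk1 had 4 and 4 against 42 and 19 counts, and the tuft list had 1 call with DESeq2 and 0 with limma voom. The lists had sums of 40.9 and 151 against 138 and 93.9 CPM and of 2.83 and 4.44 against 7.64 and 4.75 CPM, and 2 tuft markers were at 0 in every pool. Markers of leukocytes, which the CD45- gate removes, summed to 73 and 59 counts in the young and 55 and 28 counts in the old pools, with Cd3g and Cd79a at 0. Of these counts, Cd68 alone gave 63 and 41 in the young and 30 and 22 in the old pools. Markers of stroma and endothelium summed to at most 7 counts. The part of these cells in the values of the subunits was not tested, and in pooled RNA fewer cells of a type and less RNA per cell cannot be told apart.

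**Figure D5:**
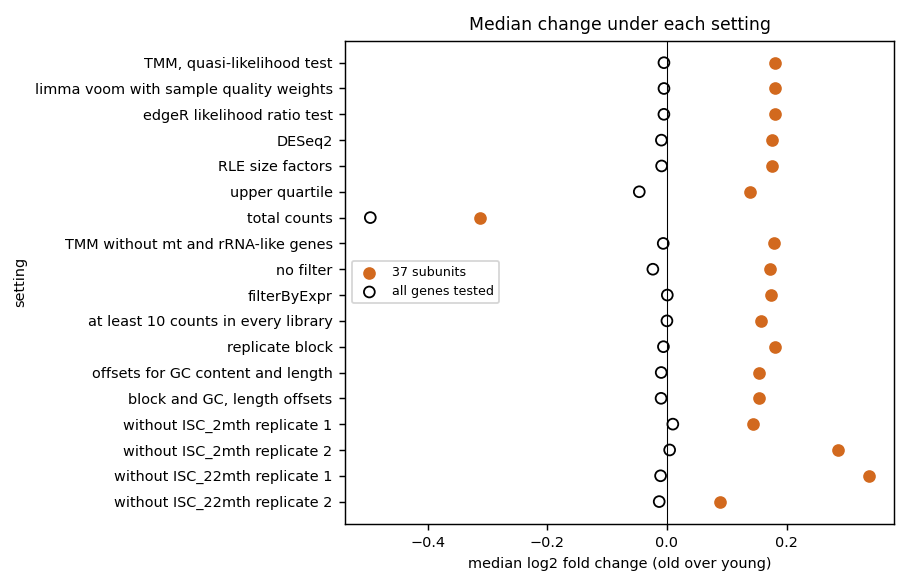
For each setting on the y axis, the filled point gives the median log2 fold change (old over young) of the 37 subunits and the open point that of all genes tested. The filled point lies to the right of the open one in every setting, by 0.10 to 0.35, and under scaling to total counts both lie below 0 (-0.31 and -0.50).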

How the data were processed

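RNA of sorted ISCs was profiled in 4 libraries, 1 for each pool of 5 animals. The authors trimmed reads with Trimmomatic (0.30), aligned them with STAR (2.4.2a) to GRCm38, counted reads over exons of GENCODE vM15 genes with featureCounts, and deposited raw counts, neither normalized nor filtered. Strand setting and treatment of multi-mapping reads are not given in the sources used here.

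From the counts, a gene was kept where any library had over 5 reads and over 1 CPM of it (13692 of 52459), as in the study's methods; all 37 subunits passed, so the filter removed none. Ages were compared with edgeR (4.0.16, R 4.3.3; TMM, glmQLFit, glmQLFTest, two-sided, no covariate), with Benjamini-Hochberg adjustment over all genes kept and a threshold of 0.05. Groups came from the sample labels. Replicates are pools of different animals, and the labels name no batch. The p-values rest on a spread between pools that is estimated largely across all genes. The spread between single animals was not measured. The limit given for 0 counts covers counting error only. Positions, lengths and GC came from GENCODE vM21, matched by symbol, and promoters from RefSeq.

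The subunits and gene lists were chosen with earlier results of these data known. Named were all subunits past the threshold, the nuclear core subunits, the 3 of lowest fold change, the 3 highest and 3 lowest in TPM, and up to 5 called genes of each other list; other subunits were named where their group was described. Values of 1 subunit are not reported here, though counts and medians over the subunits include it. Alternatives were limma (3.58.1) voom with quality weights, edgeR's likelihood ratio test, DESeq2 (1.42.0) without independent filtering, other scalings and filters, a replicate block, offsets for GC content and length (lowess, span 0.3), and each pool left out. The fits were tested on simulated data first.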

Additional observations from a re-analysis of the deposited data

How the results depend on the processing

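The median log2 fold change of the subunits (0.18) kept its sign in every setting but total counts, where it was -0.31, with 6 subunits above 0, 7 called, all lower (among them Ndufa9, Ndufab1, Ndufs6, Ndufs7, Ndufs8 and Ndufv1), and 4650 genes called in all. The number of subunits called (2) was 4 with the likelihood ratio test, 1 with DESeq2, the upper quartile, filterByExpr, at least 10 counts in every library and the GC and length offsets, and 3 with no filter. All genes called (309) were 611 with the likelihood ratio test, 197 with DESeq2, 554 with no filter and 177 with the offsets. Leaving out 1 pool at a time gave 1 to 6 subunits called, medians of 0.089 to 0.34, 23 to 34 subunits above 0 and 151 to 710 genes called; 1 age then has 1 pool, assumed to vary like the others. The causes of these differences were not tested. Replicate numbers are shared between ages, but the animals differ: across 13692 genes the difference between replicates correlated at -0.00015 between ages. With a replicate block 5 subunits and 623 genes were called, and with the block and the offsets together 1 subunit and 205 genes. Depth limits the subunits of few counts most: the 95% interval of Ndufs5, with 11 to 16 counts in a library, ran from -1.43 to 1.38.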
